A study of Mus musculus with 2 samples.

Results

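The genes of cytosine methylation and its removal were read on 2 Affymetrix arrays of mouse embryonic stem (ES) cells, 1 labelled TET2 KD and 1 labelled control KD. They were 10 genes, Tet2, Tet3, Dnmt1, Dnmt3a, Dnmt3b, Dnmt3l, Uhrf1, Tdg, Mbd4 and Gadd45b, chosen by name. Every probe set to which the platform annotation gives 1 gene symbol, and that symbol one of these 10, was taken. This gave 19 probe sets of 45037 other than controls, and 10 genes of 17097. One further probe set, joined in the annotation to Tdg and a pseudogene, was not used, and Tet1 has no probe set in the annotation.

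In the TET2 KD group, C57BL/6 mouse ES cells carried a short hairpin RNA against Tet2, delivered by virus. In the control KD group, C57BL/6 mouse ES cells carried scramble RNA. Both were grown without feeder cells on gelatin in medium with 15% serum and ESGRO, a preparation of leukaemia inhibitory factor, and both were kept in puromycin for 72 hours to select infected cells. The hairpins were driven by the U6 promoter from pMSCV-puro. The labels do not say how many hairpins against Tet2 were used, or whether cells were pooled or cloned.

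DNA methyltransferases place methyl groups on cytosines that precede guanines, known as CpG sites. Dnmt1, guided by Uhrf1, copies the pattern to new strands during replication, while Dnmt3a and Dnmt3b set methylation anew, helped in the germline and in ES cells by Dnmt3l, which has no catalytic activity of its own. TET enzymes oxidise the methyl group, and the glycosylase Tdg excises the most oxidised forms, so that base excision repair restores plain cytosine. Mbd4 is a glycosylase that removes thymine left by deamination of methylcytosine. Gadd45b is a stress-inducible protein that has been linked to active demethylation.

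The CpG sites that these enzymes act on are themselves dense before some of the genes and sparse before others. The 250 bases before a start are shown for Tet2, the targeted gene, for Gadd45b, which differed most among the 10 genes when each was read by its brightest probe set, and for Dnmt3b and Dnmt3l, whose probe sets lay low on both arrays. The sequences are from RefSeq, build GRCm38.p6, 5′ to 3′ on the gene's strand, with every CG in capitals. For Dnmt3l the first of 3 annotated starts is shown, and which start these cells used is not known here.
Tet2 (chr3:133544391-133544640, minus strand): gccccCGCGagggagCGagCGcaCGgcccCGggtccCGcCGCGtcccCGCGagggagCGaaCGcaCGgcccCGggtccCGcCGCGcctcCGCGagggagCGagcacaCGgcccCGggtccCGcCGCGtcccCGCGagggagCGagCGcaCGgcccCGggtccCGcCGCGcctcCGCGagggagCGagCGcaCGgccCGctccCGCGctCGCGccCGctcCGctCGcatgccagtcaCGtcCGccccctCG
Gadd45b (chr10:80929841-80930090, plus strand): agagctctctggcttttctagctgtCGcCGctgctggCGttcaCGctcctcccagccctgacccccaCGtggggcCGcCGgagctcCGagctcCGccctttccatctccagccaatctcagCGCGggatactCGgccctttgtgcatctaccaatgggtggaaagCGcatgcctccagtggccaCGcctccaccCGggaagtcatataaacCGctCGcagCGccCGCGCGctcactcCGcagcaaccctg
Dnmt3b (chr2:153649199-153649448, plus strand): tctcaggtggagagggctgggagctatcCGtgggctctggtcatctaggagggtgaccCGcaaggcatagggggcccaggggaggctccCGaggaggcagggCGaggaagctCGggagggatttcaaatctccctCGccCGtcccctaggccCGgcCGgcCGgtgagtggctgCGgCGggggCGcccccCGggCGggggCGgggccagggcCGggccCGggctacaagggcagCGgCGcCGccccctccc
Dnmt3l (chr10:78042037-78042286, plus strand): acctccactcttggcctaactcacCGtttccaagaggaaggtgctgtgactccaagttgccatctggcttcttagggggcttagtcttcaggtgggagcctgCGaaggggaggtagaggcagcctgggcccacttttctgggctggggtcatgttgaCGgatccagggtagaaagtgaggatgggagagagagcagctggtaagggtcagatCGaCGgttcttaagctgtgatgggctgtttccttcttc

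The window before Tet2 holds 51 CG, a number reached by 0.0670% of all 32851 such windows in the table. That before Gadd45b holds 22, reached by 14.8%, that before Dnmt3b 21, reached by 16.3%, and that before Dnmt3l 5, reached by 55.6%. The median over all windows was 6. All 10 genes had at least 1 window, 17 in all, and 13 of the 17 were above that median.

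There was 1 array per group, so no difference below has an error or a test of the conditions. Values are log2 signal per probe set. A difference is the value in the array labelled TET2 KD less that in the array labelled control KD, and a change of 2-fold is a log2 difference of 1. A floor was set at 2.55, the median over both arrays of every probe set that is no control, and a probe set or gene whose mean was not under it is said to have reached the floor. Probe sets differ in how well they bind, so a level was set against the floor and against the other probe sets of its own array, never read as an amount of RNA. Replicates being absent, the spread of all probe sets that reached the floor gives the scale, with a robust SD of differences of 0.15.

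The check of the labelled cells came first. Of 15 ES cell markers measured, 11 reached the floor on each array. Beside them, 11174 of all 17097 genes reached the floor by the mean of both arrays. Zfp42 was one of the 11 markers, at 10.58 in the array labelled TET2 KD and 10.56 in that labelled control KD. Sox2 was at 6.98 in the array labelled TET2 KD and 7.09 in that labelled control KD. Pou5f1 and Nanog, the core factors of pluripotency, were under it, Pou5f1 at 1.29 in the array labelled TET2 KD and 1.07 in that labelled control KD, and Nanog at 0.97 in the array labelled TET2 KD and 1.01 in that labelled control KD. Those levels fell within the range of the 17 control probe sets named as tags, 0.75 to 1.78 in the array labelled TET2 KD and 0.74 to 1.82 in that labelled control KD. Of 10 neuron and 9 oligodendrocyte markers, 9 and 9 reached the floor on each array, beside the same 11174 of 17097 genes. Some were far above the floor. Stmn2, of neurons, read 10.35 in the array labelled TET2 KD and 10.34 in that labelled control KD. Mbp, of oligodendrocytes, read 10.22 in the array labelled TET2 KD and 10.32 in that labelled control KD. The 1 under the floor was Snap25, of neurons, at 2.26 in the array labelled TET2 KD and 2.51 in that labelled control KD. Klf4, an ES cell factor, was past 2-fold by its brighter probe set, at 1.01, and at 0.51 by the other. Opalin, of oligodendrocytes, differed by 1.13 by its brighter probe set and -0.33 by the other, while 7 of the 9 oligodendrocyte markers had differences below 0 and the median was -0.10.

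Markers of other tissues and of sex also separated the arrays. Of 8 pituitary markers measured, 4 reached the floor in the TET2 KD-labelled array and 5 in the control KD-labelled array, and their summed linear signal was 68.6 in the array labelled TET2 KD and 3598 in that labelled control KD. Of 10 markers of olfactory and airway epithelium, 2 reached it in the TET2 KD-labelled array and 7 in the control KD-labelled array, with sums of 45.3 in the array labelled TET2 KD and 676 in that labelled control KD. Prl, Gh, Pomc and Fshb, pituitary hormone genes, and Bpifa1, Cyp2a5, Cyp2g1, Cyp2f2, Stoml3 and Sec14l3, of the epithelium, were past 2-fold downward. Cga, a pituitary hormone subunit gene whose mean was under the floor, went the other way, at 2.80 in the array labelled TET2 KD and 1.29 in that labelled control KD. Foxj1, of the same epithelial list, also went the other way, at 3.67 in the array labelled TET2 KD and 3.40 in that labelled control KD. Its difference was 0.27, and it reached the floor on both arrays. Omp, of mature olfactory neurons, did not reach the floor on either array, nor did Scgb1a1 and Bpifb1, secreted proteins of the airway. Xist, expressed from the inactive X chromosome, read 3.62 in the array labelled TET2 KD and 9.34 in that labelled control KD. The Y-linked Eif2s3y read 6.14 in the array labelled TET2 KD and 0.89 in that labelled control KD by its brighter probe set. Its 2 probe sets differed by 5.25 and 1.02. Kdm5d, also Y-linked, differed by 3.49 by its brightest probe set, with its 3 probe sets between 0.03 and 3.49. None of the other 4 Y-linked genes measured, Zfy1, Zfy2, Uty and Usp9y, reached the floor on either array. The labels name only ES cells for both arrays, and whether cell types were mixed was not tested. If they were, fewer cells of a type and less RNA per cell could not be told apart. The part of these marker differences in the results below was not tested.

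Tet2 barely differed between the arrays. Probe set 1438781_PM_at read 5.22 in the array labelled TET2 KD and 5.48 in that labelled control KD, a difference of -0.26. Probe set 1455300_PM_at read 5.57 in the array labelled TET2 KD and 5.62 in that labelled control KD, a difference of -0.06. The value was the lower one in the array labelled TET2 KD for both, but neither came near 2-fold, and 17.4% and 69.7% of all probe sets that reached the floor lay at least as far from 0. The groups are therefore called the array labelled TET2 KD and the array labelled control KD throughout. Whether samples or probe set names were exchanged in the deposited table was not tested, and each value is given under the names as deposited. Where the probe sets lie on the transcript relative to the hairpin is not known here.

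Tet3, the other TET dioxygenase measured, read 3.36 in the array labelled TET2 KD and 3.15 in that labelled control KD by its 1 probe set. The difference of 0.21 is one that 23.4% of all probe sets over the floor equalled or passed. Both Tet3 values were less than 1 above the floor.

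**Figure D1:**
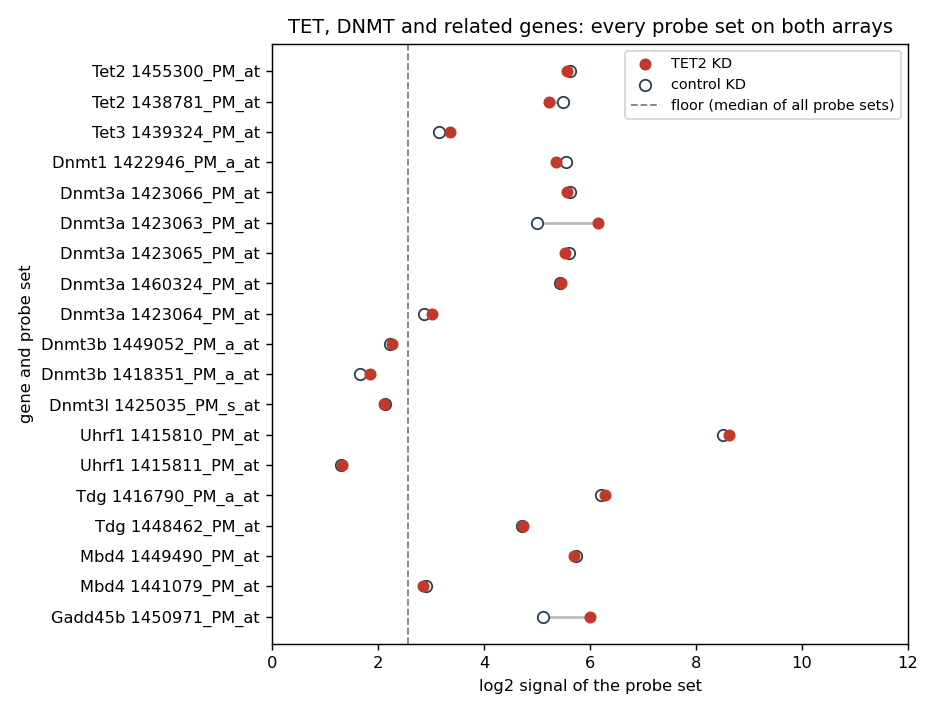
Log2 signal (horizontal axis) of each of the 19 probe sets (vertical axis, with the gene and probe set name) in the array labelled TET2 KD (filled) and the array labelled control KD (open), joined by a line; the dashed line is the floor of 2.55. The values coincide closely except for 1 probe set of Dnmt3a (6.16 in the array labelled TET2 KD and 4.99 in that labelled control KD) and that of Gadd45b (6.00 in the array labelled TET2 KD and 5.10 in that labelled control KD), and 4 probe sets lie left of the floor on both arrays.

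Dnmt1, the maintenance methyltransferase, read 5.35 in the array labelled TET2 KD and 5.55 in that labelled control KD, a difference of -0.20. Uhrf1, which recruits Dnmt1 to half-methylated DNA, had 1 probe set far above the floor and 1 far under it. Probe set 1415810_PM_at read 8.61 in the array labelled TET2 KD and 8.52 in that labelled control KD, the 98.1 and 97.8 percentiles of those arrays. Probe set 1415811_PM_at read 1.32 in the array labelled TET2 KD and 1.30 in that labelled control KD, the 18.0 and 17.3 percentiles, although the annotation gives both the same source sequence. Both showed almost the same value on either array, with differences of 0.10 and 0.02. Such a split is common in this table: of 3115 source sequences with 2 probe sets, 908 (29.1%) had 1 that reached the floor and 1 under it.

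Dnmt3a was the one gene of the 10 with a probe set past 2-fold, and its probe sets disagreed. Of the 15 probe sets of the 10 genes that reached the floor it was the only one, beside 2.01% of all probe sets that did. Probe set 1423063_PM_at read 6.16 in the array labelled TET2 KD and 4.99 in that labelled control KD, a difference of 1.17, or 2.24-fold higher. The other 4 showed no such gap. Probe set 1423066_PM_at, the one with the highest mean of the 5, read 5.57 in the array labelled TET2 KD and 5.62 in that labelled control KD, a difference of -0.05. Probe set 1423065_PM_at read 5.52 in the array labelled TET2 KD and 5.60 in that labelled control KD, a difference of -0.07. Probe sets 1460324_PM_at and 1423064_PM_at differed by 0.02 and 0.14, and the mean difference over all 5 was 0.24.

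The annotation gives the 5 Dnmt3a probe sets 1 source sequence, so they are not taken as independent readings. In all, 49 source sequences had a probe set past 2-fold and another that also reached the floor. For 4 of them (8.16%) a second one passed 2-fold the same way, so a lone probe set past 2-fold was the usual case and Dnmt3a is among the others. Which transcript parts each probe set reads was not tested.

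The de novo enzyme Dnmt3b and its helper Dnmt3l lay under the floor on both arrays. Dnmt3b stood at 2.26 in the array labelled TET2 KD and 2.22 in that labelled control KD by its brighter probe set, and at 1.84 in the array labelled TET2 KD and 1.66 in that labelled control KD by the other. Dnmt3l read 2.10 in the array labelled TET2 KD and 2.13 in that labelled control KD. The brighter Dnmt3b probe set and that of Dnmt3l were above the highest tag control on both arrays, and the dimmer Dnmt3b probe set was above it in the array labelled TET2 KD alone. Dnmt3b and Dnmt3l are known as abundant transcripts of ES cells, which is background and not read from these arrays. Since both arrays are under the floor, no fold is given for either gene.

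The base excision enzymes Tdg and Mbd4 differed little between the arrays. Tdg read 6.28 in the array labelled TET2 KD and 6.20 in that labelled control KD by its brighter probe set, while the other gave 4.73 in the array labelled TET2 KD and 4.71 in that labelled control KD. Mbd4 read 5.69 in the array labelled TET2 KD and 5.74 in that labelled control KD by its brighter probe set, while the other gave 2.84 in the array labelled TET2 KD and 2.91 in that labelled control KD. All 4 differences were within 0.1, a size that 49.5% of all probe sets that reached the floor stayed under.

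Gadd45b gave the largest difference of the 10 genes when each was read by its brightest probe set. Its 1 probe set read 6.00 in the array labelled TET2 KD and 5.10 in that labelled control KD, a difference of 0.90, or 1.87-fold higher, short of 2-fold. Among the 11174 genes that reached the floor it ranked 369th by size of difference, and 3.30% of them lay at least as far from 0. With 1 probe set, no second reading of Gadd45b exists on these arrays.

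**Figure D2:**
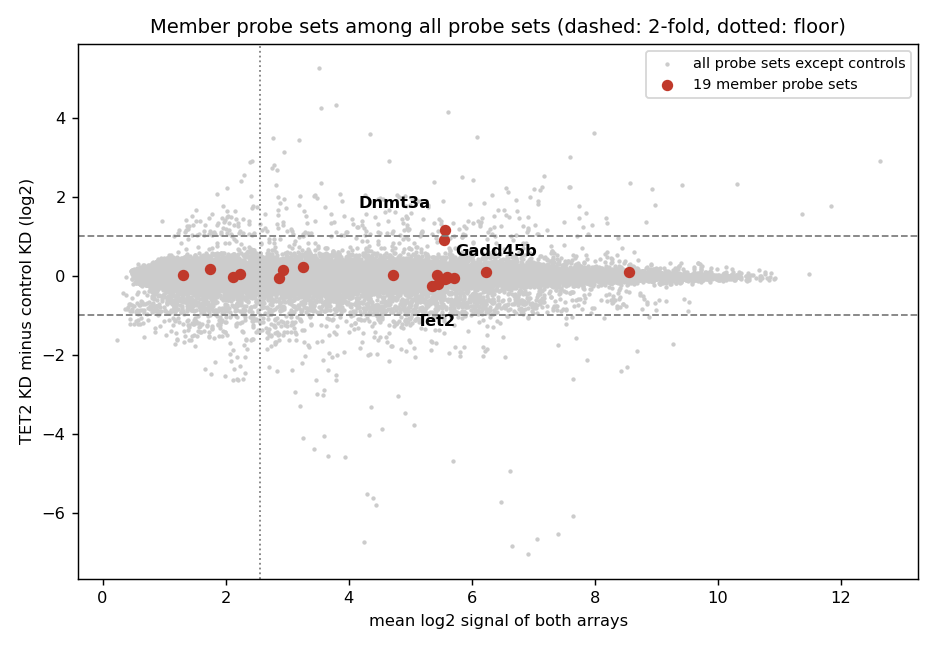
Difference between the array labelled TET2 KD and the array labelled control KD (log2, vertical axis) against the mean log2 signal of both arrays (horizontal axis) for the 19 probe sets (red) and all others except controls (grey). One Dnmt3a probe set (1.17) lies past the dashed 2-fold line, Gadd45b (0.90) just under it, and the other 17 lie within the dense band around 0, down to -0.26 for Tet2.

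Over the whole set, 11 of 19 probe sets were higher in the array labelled TET2 KD and 8 lower, and 16 differed by less than 0.25. Of the 15 that reached the floor, each on both arrays, 1 passed 2-fold, upward (6.67%). Of all 22537 probe sets that reached it, 2.01% passed 2-fold, 0.887% higher and 1.13% lower. The share of the members rests on 1 probe set and is not read as a result. Of those 15, 12 (80%) were within 0.25, beside 81.8% of all. Of the 8 genes that reached the floor, 0 passed 2-fold, beside 2.59% of 11174 genes, 1.17% higher and 1.41% lower. Their median difference was 0.02, beside -0.01 over all genes, with no test.

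The wider machinery differed as little. Of 98 related genes listed, partners of the methyltransferases, methyl-CpG readers, TET partners, base excision enzymes, methyl donor enzymes and GADD45 regulators, 82 had a probe set and 71 reached the floor. None of the 71 passed 2-fold in either direction, beside 2.59% of all genes, and 60 (84.5%) differed by less than 0.25, beside 81.4%. The median was 0.0010. At 1.5-fold, 4 of them passed (5.63%), all lower in the array labelled TET2 KD, beside 7.2% of all genes.

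Those 4 were Sin3a, a corepressor scaffold found with TET1 and OGT, Setd2, the writer of H3K36 trimethylation that the Dnmt3 enzymes read, Usp7, which stabilises Dnmt1 and Uhrf1, and Mtr, which regenerates methionine. Sin3a read 6.04 in the array labelled TET2 KD and 6.79 in that labelled control KD, with its 4 probe sets between -0.75 and 0.21. Setd2 read 5.98 in the array labelled TET2 KD and 6.61 in that labelled control KD by its 1 probe set. Usp7 read 9.15 in the array labelled TET2 KD and 9.75 in that labelled control KD, although the mean over its 6 probe sets was -0.17. Mtr read 4.80 in the array labelled TET2 KD and 5.40 in that labelled control KD, and its mean over 2 probe sets was -0.33. For Sin3a, Usp7 and Mtr the other readings did not share the size of the brightest one.

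Among base excision genes, Xrcc1, the repair scaffold, differed by -0.49 and Ogg1, which removes oxidised guanine, by -0.37, while the glycosylases Smug1 and Neil1 differed by 0.24 and 0.23. In the methyl donor cycle Mthfd1, of folate metabolism, differed by -0.44, Adk, adenosine kinase, by -0.36 and Mat2b, a subunit of the enzyme that makes S-adenosylmethionine, by -0.27. Of the readers, Mbd2, which binds methylated DNA, differed by -0.24 and Kdm2b, which binds unmethylated CpG, by 0.19. Ogt, an O-GlcNAc transferase and TET partner, read 5.78 in the array labelled TET2 KD and 5.74 in that labelled control KD. None of these 10 differences reached 1.5-fold. Other probe sets went the opposite way for Adk, whose 4 ran from -0.36 to 0.16 with a mean of -0.02. The same held for Mbd2, whose second one was at 0.21. The second probe sets of Ogg1 and Mthfd1 were each at -0.05.

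Of the other family members, Gadd45g did not share the difference of Gadd45b, and Gadd45a was too dim to compare. Gadd45g, of the same family, read 4.93 in the array labelled TET2 KD and 4.78 in that labelled control KD. Gadd45a stayed below the floor in each, at 0.40 in the array labelled TET2 KD and 2.03 in that labelled control KD. Of the listed GADD45 partners and stress genes, Gadd45gip1, a binding partner of the family, was farthest from 0 by its brightest probe set, at 0.36, and Atf3, a stress-induced factor, differed by -0.14. Of the p53 targets, the 2 probe sets of Cdkn1a differed by 0.06 (the brighter) and 0.92, the second as large as the difference of Gadd45b. Those of Mdm2 differed by 0.09 (the brighter) and -0.29.

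Some genes of the immediate early and heat shock responses, which are induced rapidly by stimulation or stress, were also higher in the array labelled TET2 KD. Of 16 immediate early genes that reached the floor, 3 passed 2-fold upward and 0 downward, beside 1.17% of all genes higher. Fosb read 4.90 in the array labelled TET2 KD and 2.83 in that labelled control KD. Fos read 6.18 in the array labelled TET2 KD and 4.76 in that labelled control KD, and Klf10, a zinc finger factor, 6.06 in the array labelled TET2 KD and 4.72 in that labelled control KD. The other 13 lay between -0.33 for Ier3 and 0.51 for Ier5, and the median of the 16 was 0.08. Nr4a1, Egr2 and Fosl1 had means under the floor and were not counted. Nr4a1 read 3.43 in the array labelled TET2 KD and 1.41 in that labelled control KD. The 2 probe sets of Egr2 differed by 1.19 and 1.28, and those of Fosl1 by 0.12 and -0.05. The summed linear signal of the 19 measured was 1212 in the array labelled TET2 KD and 1068 in that labelled control KD.

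Of 9 heat shock genes, 3 passed 2-fold upward and 0 downward, beside the same 1.17%. Hspa1b, an inducible chaperone, read 8.20 in the array labelled TET2 KD and 6.02 in that labelled control KD, and all 3 of its probe sets differed by 2.18 or more. Hspb1, a small heat shock protein, differed by 1.34 by its brightest probe set, but its 4 probe sets ran from 0.13 to 1.42 with a mean of 0.78. Hmox1, heme oxygenase, differed by 1.10. The count of 3 rests on the brightest probe set of each gene. Hspa8 differed by 0.10 by that one, while its 4 probe sets ran from 0.10 to 1.30. Dnajb1 differed by -0.20 by its brighter probe set and 0.75 by the other. The summed signal of the list was 4033 in the array labelled TET2 KD and 3414 in that labelled control KD. Both lists were chosen with earlier results of these data known, so their direction is not independent evidence, and their part in the difference of Gadd45b was not tested.

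Replication genes, which rise with Dnmt1 and Uhrf1 in dividing cells, differed little. Of 16 S phase genes that reached the floor, 0 passed 2-fold, with differences from -0.25 for Ccne1, a cyclin, to 0.15 for Ccne2, another, and a median of -0.02. Pcna, the sliding clamp that Dnmt1 binds, read 7.39 in the array labelled TET2 KD and 7.33 in that labelled control KD. The summed signal of the 23 measured was 2598 in the array labelled TET2 KD and 2644 in that labelled control KD. Of the 23, 7 were under the floor on both arrays: Mcm3, Mcm5, Rrm2, Cdc6, Cdc45, Gins1 and Gins2.

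**Figure D3:**
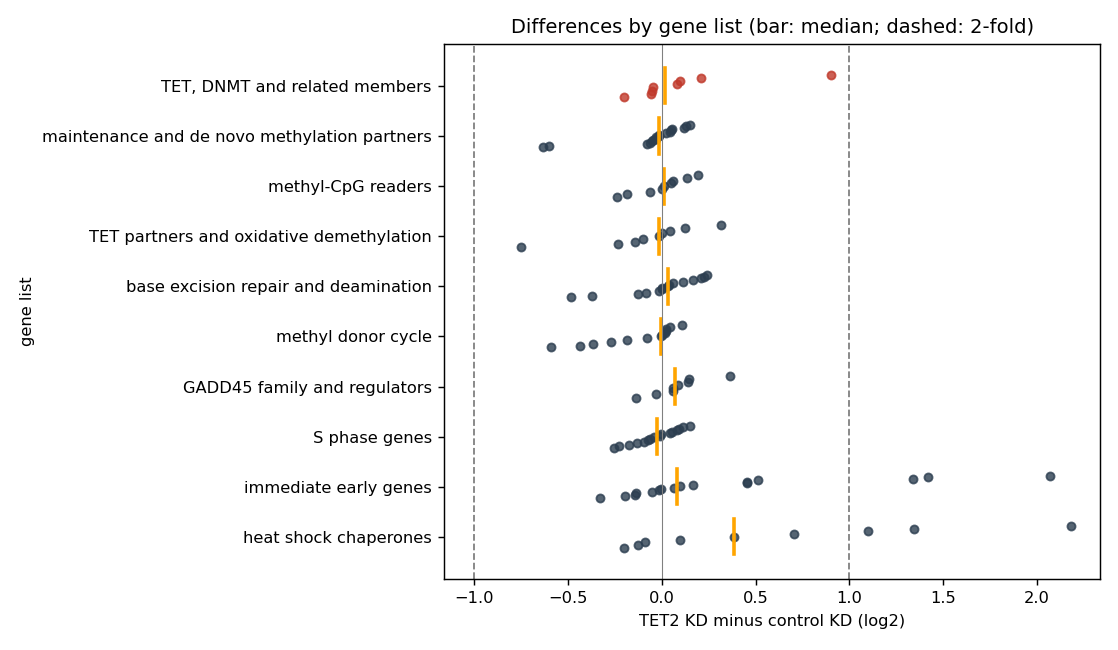
Difference between the array labelled TET2 KD and the array labelled control KD (log2, horizontal axis) of each gene that reached the floor, by gene list (vertical axis); bars are medians and dashed lines mark 2-fold. The 8 genes of the TET and methyltransferase set (red) lie between -0.20 and 0.90, the related lists within -0.75 and 0.36, and 3 genes each of the immediate early and heat shock lists lie past 2-fold.

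The windows before the starts were searched on both strands for short motifs, which describe letters and not binding. The 17 windows come from 10 genes, so they are not independent, and those of the first and second Dnmt3a starts overlap. Since 13 of the 17 were above the median CG count of all windows, shares of motifs that hold CG are not compared at like CG content. The E2F-type motif TTTCGCGC, which contains GCG and overlaps CG sites, was in 2 of the 17 windows, beside 0.256% of all windows. Those were the windows of the third Dnmt1 start and the second Uhrf1 start. Another E2F-type motif, TTTGGCGC, was in 0 of the 17, beside 0.417% of all. The E-box CACGTG was in 4 windows, of Dnmt3a, Dnmt3l, Tdg and Gadd45b, beside 6.02%. The CRE TGACGTCA was in 1, that of Tdg, beside 1.55%. The letters TATAAA were in 1, that of Gadd45b, beside 12.4%. The GC box GGGCGG, which can overlap CG sites too, was in 12 windows of 9 genes, beside 32.7%. The letters CCAAT were in 8 windows of 6 genes, beside 33.8%. The CArG box, the serum response element core, was in none of the 17 windows, in 5 of the 18 windows of immediate early genes, those 5 belonging to 2 genes, and in 1.47% of all.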

How the data were processed

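Each of the 2 arrays was 1 group. The values used are the authors' deposited log2 signals of probe sets. Per the submitters' processing notes, these came from Affymetrix Expression Console. The version, summary method, background correction and normalization are not stated in the labels, nor is the log base, which was taken as log2 because natural logs would exceed a scanner's range. Total RNA, 2 µg per sample, was labelled with biotin as cRNA, per the labels' protocols. The table has 45141 rows, 104 of them controls. Of the other 45037, the annotation gives 1 symbol for 28898, several for 551 and none for 15588. No depth exists for arrays, and their number limits the precision.

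A gene was read by its brightest probe set, by the mean over the arrays. It was counted when that mean reached the floor, the 50th percentile of all values, and called at a fold of 2. Named by rule were the 10 genes with every probe set and up to 4 genes of each other list with the largest differences. All listed genes that reached the floor and passed 2-fold, and Pou5f1, Nanog, Sox2 and Zfp42, were also named by rule. Others were chosen after their values were seen. They include Stmn2, Mbp, Snap25, Pcna, the S phase genes under the floor, Cga, the other Y-linked genes, Ogt and Ier3. They also include Omp, Scgb1a1, Bpifb1, Foxj1, Nr4a1, Egr2, Fosl1, Hspa8, Dnajb1 and the GADD45 relatives. The comparisons with tag controls and with shared source sequences and the promoter motifs were likewise chosen after the values were seen. Of 245 distinct listed genes 216 had a probe set of that symbol. The members and lists were chosen with earlier results of these data known. The 2-fold call was also run on simulated normal differences with shifts well past that cut. Its outcome followed from those settings, so it is no check of the counts given here. Alternatives covered scaling, floor, threshold and the rule for several probe sets. The tools were Python 3.11.15 with numpy 2.4.6 and, for tables, pandas 2.3.3 and, for plots, matplotlib 3.10.9.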

Additional observations from a re-analysis of the deposited data

How the results depend on the processing

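In all, 9 alternatives were run. The count of genes past 2-fold among the 8 was 0, and became 1 at 1.5-fold (Gadd45b) and 1 where each gene was read by its probe set with the largest difference (Dnmt3a). The count of probe sets past 2-fold was 1, and became 2 at 1.5-fold. Among related genes it was 0, and became 1 with the floor at the 25th percentile, 3 with no floor and 4 at 1.5-fold. Those 3, Gadd45a, Zbtb38 and Dppa3, are under the floor on both arrays. Scaling by the median or by quantiles left these 3 counts as they were. At 1.5-fold, 7.2% of all genes that reached the floor passed. No share over all genes was counted for the other floors or for the rule of the largest difference. That rule can only widen the difference of a gene with several probe sets. The median difference of the members stayed between -0.05 (floor at the 75th percentile) and 0.09 (probe set with the largest difference), so its sign is not settled. Dnmt3a was at -0.05 by its brightest probe set, 0.24 by the mean of all 5 and 1.17 by its largest, and Gadd45b ran from 0.90 to 0.94. No paired analysis was possible because each group has 1 array. Dim probe sets near the floor limit what Dnmt3b, Dnmt3l and Tet3 can show.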

Other observations

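Germline genes known as targets of silencing by DNA methylation differed little between the arrays, and several had signals well above the floor on both. Of 19 listed, 16 had a probe set and 9 reached the floor, beside 11174 of all 17097 genes. Of those 9, 0 passed 2-fold, beside 2.59% of all genes that reached the floor. Sycp3, of the meiotic chromosome axis, read 8.28 in the array labelled TET2 KD and 8.24 in that labelled control KD. Dazl, an RNA-binding protein of germ cells, read 5.84 in the array labelled TET2 KD and 5.61 in that labelled control KD, but its 2 probe sets differed by -0.16 and 0.23. Ddx4, a germ cell helicase, read 7.00 in the array labelled TET2 KD and 6.86 in that labelled control KD. Brdt, a testis bromodomain protein, read 3.31 in the array labelled TET2 KD and 3.45 in that labelled control KD, and Taf7l, a germ cell TFIID subunit, 2.98 in the array labelled TET2 KD and 2.86 in that labelled control KD. The list was chosen with earlier results of these data known. The median of the 9 was 0.04.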
